A study of Sus scrofa domesticus with 9 samples.

Results

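The nuclear-encoded respiratory chain genes of piglet liver were taken as every protein-coding gene outside the mitochondrial genome whose symbol begins with NDUFA, NDUFB, NDUFC, NDUFS, NDUFV, UQCR, COX4 to COX8 or ATP5, together with SDHA, SDHB, SDHC and SDHD. Of 80 symbols in the Ensembl name table used here that fit this rule, 71 had a value among the 16223 genes with a mean level over libraries. The other 9 (NDUFA1, NDUFA13, NDUFC1, NDUFAF2, UQCRB, COX6B2, COX6C, ATP5MC2 and ATP5MG) were not analysed here. Genes whose symbol is missing from that name table, such as ATP5F1B, UQCRH and COX6B1, were not covered, so the list is not the full set of subunits. Counts for each single liver were on hand for 1054 genes of the series, and NDUFC2 was the 1 respiratory chain gene among them. The comparison of PN with bottle-fed piglets therefore rests on NDUFC2. For the other 70 genes a level in these livers is given and no difference between groups, since the authors' own fold changes were not used here, and their absence from the values per liver cannot be read as no difference.

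The livers came from preterm Yorkshire piglets at day of life (DOL) 15. The bottle-fed group was 3 piglets given sow milk replacer, and the PN group was 6 piglets on parenteral nutrition with a soybean oil lipid emulsion until sacrifice. All piglets started on intravenous nutrition after catheter placement, and the bottle-fed piglets were off it by DOL 3. The PN piglets also received a medium chain triglyceride vehicle by gavage. The groups came from separate sows and litters, so diet, vehicle, litter and cohort cannot be told apart. PN 5 was left out of the main comparison, as the study did, and is given beside the other values.

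The respiratory chain sits in the inner mitochondrial membrane. Complex I takes electrons from NADH and complex II takes them from succinate. Both pass them to coenzyme Q, complex III hands them on to cytochrome c, and complex IV reduces oxygen. Protons pumped by complexes I, III and IV drive complex V, the ATP synthase. Most subunits are encoded in the nucleus, while a small set, including part of the core of complex I and the catalytic core of complex IV, is encoded in mitochondrial DNA. Hepatocytes are rich in mitochondria and use this chain to oxidise fatty acids and amino acids.

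NDUFC2, an accessory subunit in the membrane arm of complex I, lies on chromosome 9 at chr9:12485167-12492504 of Sscrofa11.1, on the minus strand. In the RefSeq annotation of the same assembly the gene has 3 exons and spans chr9:12486488-12492507. Its promoter window, 250 bases before to 50 bases after the RefSeq start (chr9:12492458-12492757, minus strand), is shown because this gene carries the 1 comparison between groups. Capitals mark a CCAAT box on the opposite strand, starting at position -219 from the start site. The window held no match to the NRF1, ETS or YY1 motifs described below.
NDUFC2: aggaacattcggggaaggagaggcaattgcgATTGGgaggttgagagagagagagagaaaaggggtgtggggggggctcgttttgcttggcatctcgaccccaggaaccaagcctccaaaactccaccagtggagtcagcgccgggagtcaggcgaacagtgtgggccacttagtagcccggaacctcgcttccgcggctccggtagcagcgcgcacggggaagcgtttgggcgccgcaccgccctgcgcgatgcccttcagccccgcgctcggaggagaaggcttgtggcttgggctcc

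NDUFC2 was lower with PN. Normalized counts, which are read counts divided by 1 size factor per library, were 1719, 2471 and 1062 in bottle-fed piglets 1, 2 and 3. They were 909, 723, 592, 871 and 1037 in PN piglets 1, 2, 3, 4 and 6. Every one of these 5 PN values lay under the lowest bottle-fed value, but PN 6 and bottle-fed 3 were close. PN 5 had 1116, above bottle-fed 3, so the groups overlapped once it was counted. The means were 1751 ± 705 (SD, n = 3) in bottle-fed and 826 ± 172 (SD, n = 5) in PN piglets. The bottle-fed piglets differed more among themselves than the PN piglets did.

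The difference was a log2 fold change of -1.09 with a standard error of 0.29, 2.13-fold lower with PN (edgeR quasi-likelihood test with Benjamini-Hochberg adjustment over 1054 genes, adjusted p = 0.00415). With PN 5 included the log2 fold change was -1.01 (edgeR, adjusted p = 0.00674). An exact two-sided permutation test of the log2 values gave p = 0.0179, the smallest that 8 libraries allow. Bottle-fed 2 carried part of the size of the difference, since without it the log2 fold change was -0.76 (edgeR, adjusted p = 0.0363). Bulk tissue was measured, so fewer cells that express the gene and less RNA per cell cannot be told apart.

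The count of members called, 1 lower and 0 higher, has to be set beside the table it comes from. Across the genes with counts for each liver, 45.6% were called lower with PN and 54.1% higher, because the authors listed genes that had differed between these same libraries. Likewise, for 41.6% of them the 5 kept PN livers all lay under the 3 bottle-fed livers. The call of NDUFC2 is therefore no independent evidence of its direction. Its log2 ratio of group means over all 9 libraries was -1.001, and 1053 of the 1054 genes had a ratio of 1 or more in size. By that ratio NDUFC2 ranked as number 4 from the smallest of the table, at its edge.

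**Figure D1:**
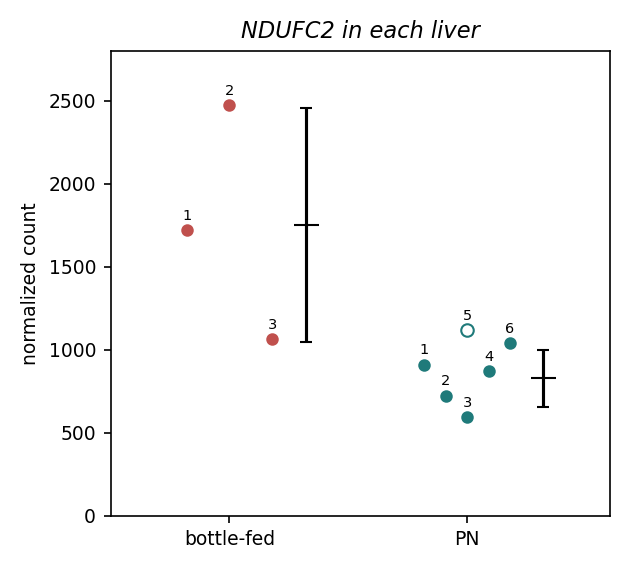
NDUFC2 in each liver. The y axis is the normalized count and the x axis the feeding group. Numbers are piglets, the open circle is PN 5, and bars are the mean ± SD of the filled points (n = 3 and n = 5). The 5 kept PN livers lie between 592 and 1037, under all 3 bottle-fed livers, while PN 5 at 1116 lies above bottle-fed 3.

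Within the table of genes with counts per liver, the 5 whose log2 CPM followed NDUFC2 most closely over the 8 libraries were STKLD1 (Pearson r = 0.958), STMN1 (r = 0.923), MIS18A (r = 0.914), GINS1 (r = 0.910) and CDC45 (r = 0.910). These values describe 8 points that share the split between groups. Among the 5 PN libraries alone, r was 0.919 for STKLD1 but 0.331 for STMN1.

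Some markers of other cell types moved between the same groups. Only markers among the genes that the authors had listed could be followed, however. Of those genes, 43.5% had every kept PN liver above every bottle-fed liver. The sum of 3 bile duct markers (EPCAM, KRT7 and SPP1, of 5 with a mean level) was 239 to 329 in bottle-fed livers and 637 to 1714 in the 5 kept PN livers, with 2216 in PN 5. SPP1, which the paper counts among the upregulated cytokines, made the largest part, with 121 to 194 against 290 to 1022. EPCAM was 63.5 to 96.5 against 229 to 538, and KRT7 46.6 to 54.2 against 73.1 to 206. VWF was the 1 of 6 listed endothelial markers with counts for each liver. It was 275 to 385 against 392 to 1208, with 631 in PN 5. DES, the 1 of 7 listed stellate cell markers with counts, was 214 to 301 against 442 to 565, with 830 in PN 5. None of the listed hepatocyte, macrophage, erythroid or T cell markers had counts for each liver. Their part in the difference of NDUFC2 was not tested. TNNT1, the 1 of 7 listed striated muscle markers with counts, was 0 to 12.7 against 18.3 to 36.5, with 14.4 in PN 5. As a check of the liver label, all 7 hepatocyte markers had a mean level, from 690124 normalized counts per kilobase of exon (per kb) for albumin (ALB) down to 811 for HNF4A, but SERPINA1 stood at only 19.6.

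On the chromosome, NDUFC2 as the authors counted it ends 843 bases from THRSP, a regulator of lipid synthesis in liver. The genes lie on opposite strands and point toward each other. THRSP had a mean level of 8706 normalized counts over libraries and NDUFC2 1613, and THRSP had no counts for each liver. The deposited gene length of NDUFC2 was 3385 bases, while the RefSeq exons add to 609. Whether the counting used strand is not given in the sources used here.

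The levels of all 71 genes come from the authors' mean of normalized counts over libraries, 1 value for each gene with no spread. Among the subunits, the mean ran from 15.6 for NDUFS8 to 9939 for ATP5F1A. To compare genes with each other, each mean was divided by its RefSeq exon length, which was known for 59 of the 71. On this scale 50 of 52 subunits lay above the median of all 11513 genes with a length (73.8 per kb), and 42 of 52 lay above the 90th percentile (722 per kb). The subunits were thus among the more abundant liver transcripts. The 2 lengths of a gene, deposited and RefSeq, differed with an SD of 0.92 on the log2 scale over 735 genes, so a typical per-kilobase level carries an error of about 2-fold, and single genes more.

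Complex I is the largest of the complexes and had a median of 1071 per kb over 29 genes, under the medians of complexes II, IV and V. The levels ran from 10.8 per kb for NDUFS8, a core subunit that holds iron-sulfur clusters, to 3167 for NDUFB9, an accessory subunit. The authors' mean of NDUFS8 was 15.6, against a median of 1064 for the complex. The hepatocyte marker SERPINA1 was similarly low, at 19.6 per kb. The part of read counting or annotation in such low values was not tested. Of the 2 genes with the highest authors' mean, NDUFV1, which binds NADH and the flavin cofactor, stood at 1389 per kb and NDUFA10, an accessory subunit, at 1901. Next above NDUFS8 came NDUFA11, an accessory subunit of the membrane arm, with 124 per kb. NDUFS3, another core subunit, stood at 1084 per kb. NDUFC2 stood at 2649 per kb by its RefSeq length of 609 bases, but the length deposited with its counts was 3385, so its place within the complex is not known.

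Complex II, succinate dehydrogenase, has its 4 subunits all in the nucleus and all were abundant. Levels per kilobase were 2631 for SDHA, the flavoprotein, 4579 for SDHB, the iron-sulfur protein, 1988 for SDHC and 2165 for SDHD, the membrane anchors. These levels differ by little more than the uncertainty of the lengths. Of the 6 measured complex III genes that fit the symbol rule, only UQCR10, a small subunit, had a RefSeq length, with 2346 per kb. The authors' means, not corrected for length, ran from 734 for UQCR11, another small subunit, to 4604 for UQCRC1. UQCRC1 and UQCRC2 (2682) form the core of the complex on the matrix side. Without lengths, these means set no order among the genes.

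**Figure D2:**
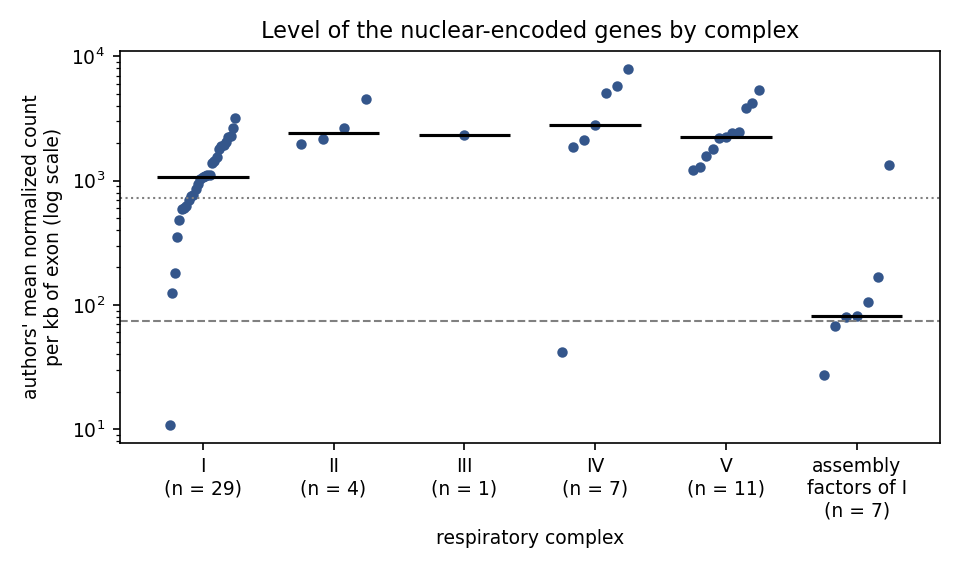
Level of the 59 genes with a RefSeq exon length, by complex. The y axis is the authors' mean normalized count per kilobase of exon on a log scale. Points are genes, black bars are medians, and the dashed and dotted lines are the median and the 90th percentile of 11513 genes. Medians of complexes II to V lie between 2243 and 2811, complex I at 1071 and its assembly factors at 80.8.

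Complex IV, cytochrome c oxidase, has several subunits that come in isoforms. By the authors' means, not corrected for length, COX4I1, the form of most tissues, had 530 and COX4I2, the lung form, 15.8. On the same scale COX6A1, the liver form, had 2809 and COX6A2, the heart and skeletal muscle form, 268. Neither pair had both lengths, so these values stand side by side without an order. COX8A, a small membrane subunit, had a mean of 3807. COX5B, a zinc-binding subunit, stood at 5830 per kb. NDUFA4, now counted with complex IV, stood at 2811 per kb and its relative NDUFA4L2, known as a hypoxia-induced protein in human cells, at 41.6 per kb. The authors' means were 2794 for NDUFA4 and 276 for NDUFA4L2, and the RefSeq lengths 994 and 6639 bases. The size of this gap thus depends on the lengths.

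In the COX7A pair the heart and muscle form, COX7A1, had a mean of 2617, and COX7A2, the liver form, 993. Per kilobase the levels were 7979 and 2104, so COX7A1 was the higher. COX7A1 was the most abundant of the 59 genes on that scale. Its annotated exons add to only 328 bases, which raises a per-kilobase level. Of 7 listed striated muscle genes 3 had a mean level in the same livers. Per kilobase CKM had 75.8, close to the median of all genes (73.8), while TNNI1 had 11.7 and TNNT1 6.88. Their part in the level of COX7A1 was not tested. COX7A2L, which helps to join complexes III and IV, had a mean of 2344. The pairs share sequence, so reads may be split between them in an unknown way.

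In complex V, ATP5F1A, the alpha subunit of the catalytic head, stood highest of the 11 genes covered, with 5387 per kb. ATP5F1B was not among them. ATP5PB, of the peripheral stalk, had 2426 per kb and ATP5F1C, of the central stalk, 1293. ATP5ME and ATP5MK, small membrane subunits and the lowest 2 by the authors' mean, had 2243 and 1796 per kb. The c subunit of the rotor is one protein encoded by several genes, of which ATP5MC3 had 2443 per kb and ATP5MC1 1207 per kb. ATP5IF1, the inhibitor of the synthase in its reverse direction, had 3830 per kb, more than 8 of the 11 complex V genes.

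The NDUFAF genes fit the symbol rule but encode assembly factors of complex I, proteins that build the complex and do not stay in it. Per kilobase the 7 with a mean stood far below the subunits, with a median of 80.8 per kb against 1798 for the 52 subunits. Not corrected for length, the medians of the authors' means were 308 for these 7 and 1358 for 64 subunits. The size of the gap thus depends on the lengths. NDUFAF3 (1328 per kb) was the exception, NDUFAF1 stood at 105 per kb, NDUFAF4 at 80.5, NDUFAF5 at 67.8 and NDUFAF6, the lowest, at 27.2. Only 5 of the 7 lay above the median of all genes.

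Nuclear respiratory genes are classically placed under the transcription factors NRF1 and GABP, an ETS factor also called NRF2, and many carry a YY1 motif near the start. Promoter windows of 300 bases were therefore searched on both strands for 4 motifs. These were the NRF1 motif (GCGC, any base, TGCGC), the ETS core CCGGAAG, the YY1 core AANATGGCG and, for comparison, the CCAAT box CCAAT. Windows came from the RefSeq models of Sscrofa11.1 and were had for 59 of the 71 genes. A match describes the letters in a window and shows no binding.

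The YY1 core was in 10 of the 59 windows (16.9%) and in 2.71% of 19534 windows of all protein-coding genes. The NRF1 motif was in 9 (15.3%, against 6.32%) and the ETS core in 17 (28.8%, against 11.0%). At least 1 of the 3 was in 29 of 59 windows (49.2%), against 17.8% of all. The CCAAT box was in 18 (30.5%, against 35.4%). The windows had a median GC content of 61.0%, against 58.7% over all, and the part of GC in these shares was not tested. NDUFC2 was among those with none of the 3.

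**Figure D3:**
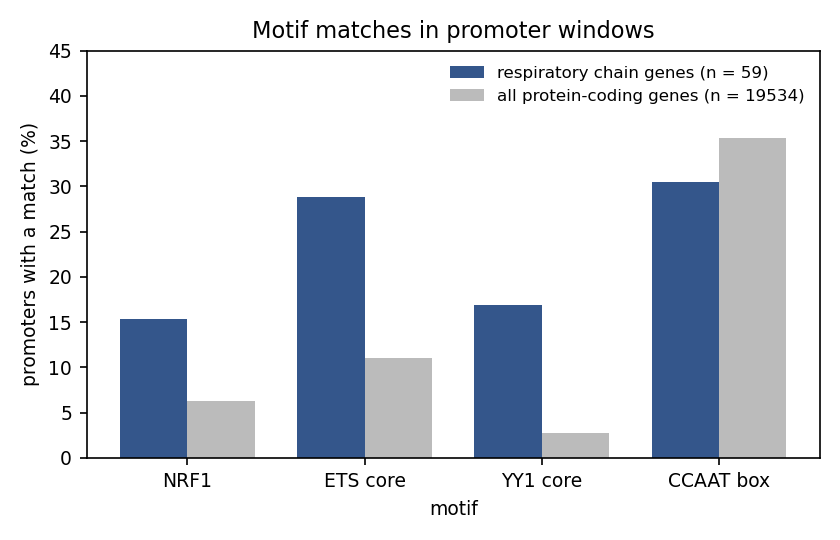
Share of promoter windows with a match to each motif on either strand. Blue bars are the 59 respiratory chain genes and grey bars all 19534 protein-coding genes with a window, in percent. The YY1 core stands at 16.9% against 2.71%, the NRF1 motif at 15.3% against 6.32%, the ETS core at 28.8% against 11.0%, and the CCAAT box at 30.5% against 35.4%.

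The YY1 matches are shown because most sit near the start sites. Of the 10, 8 lay within 50 bases of the annotated start, at a median position of 3.5. Positions were not computed over all promoters, for this motif or those below, so closeness to the start cannot be called particular to these genes. Each line gives 30 bases on the strand of the gene with the motif in capitals. In 6 genes it reads along the gene and in 4 (ATP5MC1, NDUFA7, NDUFB1 and SDHD) on the opposite strand.
SDHB, complex II, chr6:75678095-75678124, minus strand: gtcagaaaccAAAATGGCGgcggtggtcgc
NDUFB8, complex I, chr14:111633528-111633557, minus strand: gaagaaggtgAAGATGGCGgcggccaaggc
NDUFA6, complex I, chr5:6562078-6562107, plus strand: tttatttagcAAGATGGCGgcgagcggact
NDUFB11, complex I, chrX:41774016-41774045, minus strand: tcaccagcacAAAATGGCGacgacgagaag
COX6A1, complex IV, chr14:40408620-40408649, plus strand: tgatctaggtcgAAAATGGCGgcagctgct
NDUFAF8, assembly factor, chr12:1519429-1519458, minus strand: gggaagaggccggacctAAGATGGCGgcgc
ATP5MC1, complex V, chr12:25110521-25110550, plus strand: ccaccttggcCGCCATTTTgtgcgggaggc
NDUFA7, complex I, chr2:70954838-70954867, plus strand: cgaggccataCGCCATGTTcccagcagtcc
NDUFB1, complex I, chr7:113659910-113659939, minus strand: caatggcggcCGCCATTTTgaaactggagg
SDHD, complex II, chr9:39790449-39790478, plus strand: cacccagctcCGCCATCTTccgcgtcagcc

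The NRF1 motif reads nearly the same on both strands, and its matches lay from position -194 to 29, with 5 of 10 within 50 bases of the start. The lines show genes of complexes I (NDUFS6 and NDUFA9, of its matrix arm), III, IV and V. NDUFA9, COX5B and ATP5ME also held the ETS core.
NDUFS6, complex I, chr16:79000050-79000079, minus strand: cgaccgcaccGCGCATGCGCgcctcccagg
NDUFA9, complex I, chr5:65788688-65788717, minus strand: ttcccaattgGCGCCTGCGCagacggccga
UQCR10, complex III, chr14:46783317-46783346, plus strand: gtcggtcgaaGCGCAGGCGCggtggtgcta
COX5B, complex IV, chr3:56632252-56632281, minus strand: aggcacaggtGCGCAAGCGCaggccttgcc
ATP5ME, complex V, chr8:113579-113608, minus strand: gctgccgacgGCGCATGCGCtttccagagt

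The ETS core was the most common of the 3 and was found in 17 genes of complexes I, II, IV and V, with 15 of its 24 matches within 50 bases of the start. NDUFS3 had 3 matches and ATP5MK, COX5B, COX7A2, NDUFB7 and SDHD had 2 each. COX5B is shown as an example with 2 copies, and ATP5F1A as one on the opposite strand.
COX5B, first copy, chr3:56632135-56632164, minus strand: gcagccctcccCCGGAAGtccctgcacctc
COX5B, second copy, chr3:56632104-56632133, minus strand: ggagcctgttaCCGGAAGtgctggtatttg
ATP5F1A, complex V, chr1:95750882-95750911, minus strand: gaggggcggtaCTTCCGGgtcaggtgggct

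The factors that read these motifs had mean levels of 19.3 per kb for NRF1, 103 for GABPA and 293 for YY1. GABPB1, listed beside them, had 25.6 per kb. NRF1 and GABPB1 lay under the median of all genes (73.8 per kb), with RefSeq lengths of 10309 and 6933 bases. TFAM, which packs and transcribes mitochondrial DNA, stood at 473 per kb. None of the 16 measured regulators of mitochondrial biogenesis had counts for each liver, and no difference between groups was computed for them here. The same holds for 17 electron carrier and coenzyme Q genes and for 14 genes of mitochondrial dynamics and cristae.

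Of the partner subunits encoded in mitochondrial DNA, all but ATP8 stood above every nuclear-encoded respiratory chain gene with a length. Their 13 means per kilobase ran from 5529 for ATP8 to 353349 for COX1, while the most abundant nuclear-encoded respiratory chain gene reached 7979. Counts for each liver were on hand for 3 of the 13, and all 3 were called higher with PN, in the opposite direction to NDUFC2. The background of 54.1% called higher applies to them as well.

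ND1, a core subunit of complex I, had 14879, 18026 and 21940 normalized counts in the bottle-fed livers. In PN 1, 2, 3, 4 and 6 it had 92977, 115261, 44293, 113257 and 73577, and in PN 5 55083. Every PN liver was above every bottle-fed liver. The log2 fold change was 2.26 with a standard error of 0.39 (edgeR, adjusted p = 0.000446). ND2, its neighbour subunit, had 23650, 25957 and 38337 in bottle-fed livers, and in the same PN livers 96635, 131820, 42087, 116024 and 74237, with 48629 in PN 5. PN 3 came close to bottle-fed 3, with no overlap. The log2 fold change of ND2 was 1.65 with a standard error of 0.40 (edgeR, adjusted p = 0.00286). In both genes PN 3 was the lowest PN liver, as it was for NDUFC2.

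ATP8, a small membrane subunit of complex V, differed far more. Normalized counts were 53.1, 62.2 and 39.6 in bottle-fed livers and 6732, 9633, 4183, 9095 and 7113 in PN 1, 2, 3, 4 and 6. PN 5 had 3528. The log2 fold change was 7.15 with a standard error of 0.43, a 142-fold higher level (edgeR, adjusted p = 7.56e-08). The lysine tRNA that ends 1 base before ATP8 showed the same split, with raw counts of 1, 0 and 1 in bottle-fed livers and normalized counts of 808 to 1499 in the kept PN livers and 426 in PN 5. ATP8 is 204 bases long and shares 43 of them with ATP6, and reads over both may be counted for neither. Its raw counts in the bottle-fed livers were 65, 54 and 38. ATP6 had a mean level of 210646 but no counts for each liver, so the difference of ATP8 could not be set beside it. The authors' mean of ATP8 was 1128, while the values per liver averaged 4493 over the 9 libraries, so that mean is not the average of these values.

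Mitochondrial ribosomal RNA set PN 5 apart. The 16S rRNA had 48675 normalized counts there. In bottle-fed livers it had 510 to 1766, and in the 5 kept PN livers 726 to 6767. These libraries were made from poly(A) RNA, so rRNA and tRNA counts measure what passed that selection. Its part in the levels of the mitochondrial genes was not tested.

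**Figure D4:**
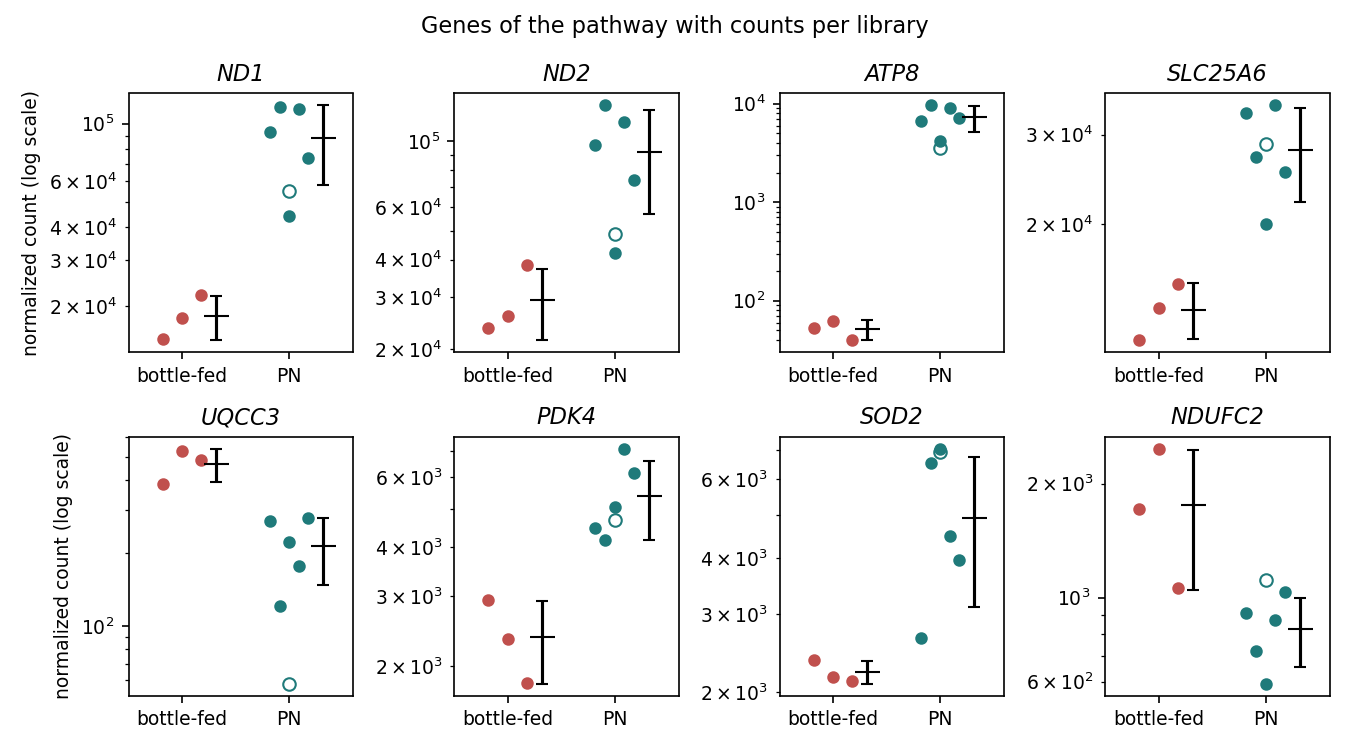
Genes of the respiratory pathway with counts for each liver. Each panel has the normalized count on a log y axis by feeding group. Filled points are livers, the open circle is PN 5, and bars are the mean ± SD of the filled points (n = 3 and n = 5). ND1, ND2, ATP8, SLC25A6, PDK4 and SOD2 are higher in every PN liver, and UQCC3 is lower in every PN liver. NDUFC2 is lower in all but PN 5, which overlaps with the bottle-fed livers.

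UQCC3, an assembly factor of complex III, was the 1 of 43 measured assembly factors with counts for each liver. It had 386, 529 and 482 normalized counts in bottle-fed livers and 270, 121, 221, 177 and 279 in PN 1, 2, 3, 4 and 6, with 57.7 in PN 5. It was lower in every PN liver, with a log2 fold change of -1.13 and a standard error of 0.29 (edgeR, adjusted p = 0.00359). As for NDUFC2, 45.6% of the genes with counts for each liver were called lower. For 41.6% every kept PN liver lay under every bottle-fed liver. The call of UQCC3 is therefore no independent evidence of its direction.

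SLC25A6, an exporter of ATP from mitochondria in exchange for ADP, rose by 1.03 on the log2 scale with a standard error of 0.29 (edgeR, adjusted p = 0.00542). Its normalized counts were 11843 to 15260 in bottle-fed and 20074 to 34272 in the kept PN livers, with 28731 in PN 5. PDK4, a kinase that shuts pyruvate out of the tricarboxylic acid cycle, was the 1 of 23 genes around that cycle with counts for each liver. It rose by 1.18 on the log2 scale with a standard error of 0.28 (edgeR, adjusted p = 0.00260). Its counts were 1817 to 2937 against 4162 to 7090, with 4676 in PN 5. The background of 54.1% called higher applies to SLC25A6 and PDK4 too.

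SOD2, the mitochondrial superoxide dismutase, had 2365, 2165 and 2126 in bottle-fed livers and 2654, 6517, 7027, 4479 and 3963 in PN 1, 2, 3, 4 and 6. PN 5 had 6920. PN 1 was close to the bottle-fed livers and the others were well above. The log2 fold change was 1.15 with a standard error of 0.33 (edgeR, adjusted p = 0.00593), while the exact permutation test gave p = 0.0536 with 8 libraries. The same background of 54.1% called higher applies to SOD2.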

How the data were processed

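RNA-Seq of poly(A) RNA was performed on liver from 9 piglets, and the paper states that all samples shared 1 batch. The paper also states that the PN tissue and its RNA data had been reported earlier, while the bottle-fed cohort was new. Differences in processing between the groups were not tested. HISAT2 2.0.5 was the authors' aligner (genome Sscrofa11.1) and featureCounts 2.0.3 their counter. The submitters' processing notes name DESeq2 1.26.0. The deposited raw counts, FPKM and normalized signal (counts divided by a size factor) cover 1054 genes that the authors had called. A second deposited table holds the authors' mean of the normalized signal for 16223 genes, over libraries that are not stated. Gene lengths (another deposited unit) are in bases. The fold changes, errors and p-values of the authors' own comparison, in both tables, were not used.

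Library totals recovered from counts and FPKM were 17106838 to 24025142 reads, and served as library sizes in edgeR 4.0.16 (R 4.3.3), quasi-likelihood test, 3 bottle-fed against 5 PN, Benjamini-Hochberg over 1054 genes, threshold 0.05. No filter on low counts was applied. The alternatives were DESeq2 1.42.0, TMM, the authors' size factors, an exact permutation test on log2(normalized count + 1), a low count filter (10 counts in 3 libraries), all 9 libraries, a replicate block and leaving out each library. The script was tested on simulated data. No pair of libraries agreed within sampling noise. The labels do not say that each library is another animal, but the methods describe 1 piglet per library.

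In full, every member with counts per library was described, in each complex the 2 highest and 2 lowest by the authors' mean, the isoform pairs, and every gene with counts from the pathway lists. Members named beside these were chosen after their values were seen. Members, lists and motifs were chosen with earlier results of these data known. Sequences, exon lengths and promoter windows are from NCBI RefSeq on Sscrofa11.1. Of the deposited genes with a RefSeq model, 100% of 735 lay at the same place. Gene symbols for the table of means came from an Ensembl name table.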

Additional observations from a re-analysis of the deposited data

Results flagged for a closer look

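Values in which 1 PN library stood far from the other PN libraries were looked for in 42 groups of values, where chance gives about 1 in 20. Each gene was looked at with and without PN 5, so these groups share values. The bottle-fed libraries were not looked at in this way. The gap to the nearest library, as a share of the range of the group, passed Dixon's critical value 4 times. Mitochondrial 16S rRNA in PN 5 was 48675 normalized counts, a gap of 0.874 of the range over the 6 PN libraries. DES, the stellate cell marker, was 830 in PN 5, a gap of 0.683. Mitochondrial tRNA-Tyr was 96.4 in PN 4, a gap of 0.879 both with and without PN 5. NDUFC2, ND1, ND2, ATP8, UQCC3, SLC25A6, PDK4 and SOD2 had no such PN library.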

How the results depend on the processing

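NDUFC2 stayed lower with PN and called under all 16 alternatives, with an adjusted p from 0.00129 to 0.0363 and a log2 fold change from -1.35 to -0.76 when 1 library was left out. ND1, ND2, ATP8, UQCC3 and PDK4 also kept their call under all 16. All these fits use genes that the authors had called on the same libraries, most of which stayed called under every setting. Keeping a call was therefore close to given in advance and is no independent evidence. SLC25A6 lost its call with the replicate block (log2 fold change 0.95, adjusted p = 0.0592), and SOD2 with the exact permutation test (1.07, adjusted p = 0.0583). No paired design was given: libraries of 1 number correlated at -0.0338, -0.0436 and -0.0266 in their deviations from the group means, so the numbers do not pair the piglets. With the replicate block on libraries 1 to 3 of each group, 932 genes were called, against 985 in the same 6 libraries without it, a fit added after seeing the data. NDUFC2 gave -1.18 with the block (edgeR, adjusted p = 0.00887). Counts of genes called over the table stayed within 1.5 times of 1051 throughout, the lowest being 882 with the permutation test. The median level of complex IV moved from 2319 to 2541 without the isoforms known for other tissues, and the mean in place of the median gave 1832 for complex IV and 2828 for complex V. Depth limits the lysine tRNA, at 0 or 1 count in bottle-fed livers. The precision of every difference is limited by 3 bottle-fed livers.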

Other observations

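Since FPKM values divide by length, they allow levels of 2 genes to be set side by side within a liver. By the deposited FPKM, NDUFC2 was 15.9 to 37.0 in bottle-fed and 8.83 to 15.5 in the kept PN livers, and ATP8 was 9.85 to 15.5 and 1036 to 2389. In the bottle-fed livers the mitochondrially encoded ATP8 thus stood under the nuclear NDUFC2, whose FPKM uses the longer deposited length, while ND1 stood at 793 to 1166. Other mitochondrial tRNAs were at or near 0 in bottle-fed livers as well. The tRNA-Asn had raw counts of 0 in all 3 and normalized counts of 40.4 to 340.0 in the kept PN livers, with 795 in PN 5. The means over libraries and the averages of the values per liver differed by more than 2-fold for 6.15% of 780 genes.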
